A study of Homo sapiens with 2 samples.

Results

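In the central domain of 18S rRNA the ZAK-alpha-RBR and mock pull-downs looked more alike than in the parts of 18S before and after it. It was taken as the positions after 668 and up to 1200 in the deposited table, a range fixed by position and not by the measured values. This gives 532 of the 1870 positions of 18S, and of 6940 on both listed rRNAs. The cells were U2OS, a line from a human osteosarcoma, and the RNA fragments that came down with a protein were sequenced (CLIP-seq). There was 1 library labelled ZAK-alpha-RBR, a construct of the stress kinase ZAKα, and 1 library labelled mock, both from the same line and with no treatment given in the labels. The sources used here do not say what the letters RBR stand for, how the construct was expressed or what the mock pull-down contained. With 1 library per group no difference could be set against a spread between replicates, and no test was made.

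In the folded small subunit, the central domain of 18S forms the platform, the ledge beside the path of mRNA through the ribosome. The hairpin loops of helices 23 and 24 lie on the side of the platform that faces the large subunit, close to the mRNA and tRNA sites. In eukaryotes this domain carries expansion segment 6 (ES6S), a large insertion at helix 21 that lies on the outer, solvent side of the subunit. Helix 27 packs against the decoding site. ZAKα is recruited to ribosomes that stall or collide and then starts the ribotoxic stress response, and the comparison with the mock asked which stretches of rRNA came down with it.

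The stretches on which the results turn are shown first, 5′ to 3′, as the deposited table spells them and numbered from 1 at the 5′ end of 18S. The first holds the only place in the domain called higher with ZAK-alpha-RBR by the region rule given below, at positions 708 to 721, within ES6S, in capitals.
ES6S 5′ part, 695 to 734: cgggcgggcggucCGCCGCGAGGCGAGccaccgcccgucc
The next holds the first tall peak of both libraries, in the 3′ part of ES6S. Capitals mark positions 889 to 912, where ZAK-alpha-RBR coverage was above 50% of its local maximum, except at a single-position dip at U 896.
ES6S 3′ part, 876 to 925: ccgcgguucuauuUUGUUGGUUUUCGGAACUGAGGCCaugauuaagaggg
The loop regions of helices 23 and 24 follow, found by the motifs in capitals (GUGAAAU and AUACCGU), each of which occurs 1 time in 18S on the strand given.
Helix 23 loop, 951 to 973: cgcuagagGUGAAAUucuuggac
Helix 24 loop, 1052 to 1074: acgaucagAUACCGUcguaguuc
The tallest peak of the ZAK-alpha-RBR library in the domain starts inside the helix 24 motif; capitals again mark coverage above 50% of the local maximum, positions 1064 to 1101.
Helix 24 and after, 1051 to 1114: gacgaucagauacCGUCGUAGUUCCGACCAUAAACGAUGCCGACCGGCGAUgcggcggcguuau
Capitals in the last pair mark the places called lower with ZAK-alpha-RBR, 1014 to 1026 before helix 24 and 1180 to 1195 in helix 27 and after it.
Before helix 24, 1001 to 1039: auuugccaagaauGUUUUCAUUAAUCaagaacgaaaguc
Helix 27, 1167 to 1208: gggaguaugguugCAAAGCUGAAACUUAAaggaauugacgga

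Coverage here is the number of reads spanning a position, divided by the summed coverage of the library and given in parts per 1000000 (ppm). The ZAK-alpha-RBR library was the shallower one. Across the domain its read depth was between 58 and 3691 with a median of 882, and that of the mock was between 551 and 29304 with a median of 9583, so every position of the domain was covered in both libraries. Intervals below are at 95%, exact for read depths and approximate for shares, and cover the counting error of reads only. They make no allowance for positions picked as extremes of the domain. At the limits of the range, position 668, the first A of a run, had 4 reads with ZAK-alpha-RBR and 293 in the mock, and the next position, the first inside it, had 887 and 9085. Position 1200 had 118 and 2551 reads, and position 1201 had 127 and 2971.

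The domain as a whole took nearly the same share of 18S in both libraries. It held 23.1% of the 18S coverage of the ZAK-alpha-RBR library (95% Clopper-Pearson interval 22.3 to 23.8) and 22.99% of that of the mock (22.6 to 23.4), while it makes up 28.4% of the positions of 18S. The intervals rest on the smallest number of reads that the deepest 18S position allows, 12973 and 48509. They are approximate, because a share of summed coverage is not a count of reads. With the highest ZAK-alpha-RBR region of 18S, which lies outside this domain, left out of the 18S totals, the shares were 26.5% and 23.8%. This alternative was chosen after seeing the data. Mean coverage in the domain was 155 ppm with ZAK-alpha-RBR and 142 ppm in the mock, a 1.09-fold difference, and the same fold of 1.09 separated the libraries over the rest of 18S. Both libraries thus covered the domain more thinly than the rest of 18S, where the means were 206 and 189 ppm.

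Position by position, the libraries lay closer together here than in the 18S parts before and after the domain or over 28S taken whole; single parts of 28S were not compared. The log2 ratio divides the ZAK-alpha-RBR coverage by that of the mock after 1 ppm was added to each, so differences at low coverage are understated. Of the 532 positions, 479 (90.0%) lay within 2-fold, against 66.8% of the positions before the domain, 74.0% of those after it and 79.8% of 28S. ZAK-alpha-RBR was at least 2-fold above the mock at 18 positions (3.38%), against 9.31% of all positions of the table, and at least 2-fold below it at 35 (6.58%), against 11.9%. The count of 35 became 54 with scaling within 18S, 23 with 10 ppm added in place of 1, 20 with the limits of the domain moved inward by 20 positions, and 4 over positions above the lower quartile of coverage. A narrower limit of 1.5-fold held 66.7% of the domain, 42.5% of the rest of 18S and 54.0% of 28S. The standard deviation of the log2 ratio over positions was 0.62 in the domain, 1.11 before it, 0.87 after it and 0.84 on 28S. The log2 coverages of the libraries correlated across positions of the domain with Pearson's r = 0.86 (Spearman's rho of coverage 0.87), compared with r = 0.55 before it, 0.70 after it and 0.81 on 28S. Neighbouring positions share reads, so these are descriptions of 2 libraries and carry no p-value.

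**Figure D1:**
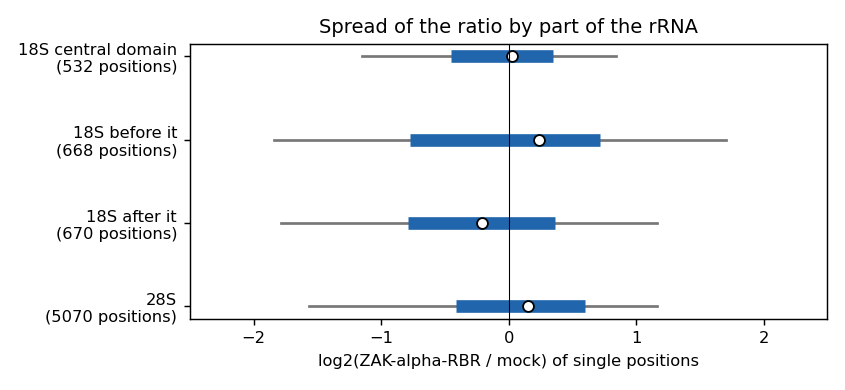
Spread of the log2 ratio of ZAK-alpha-RBR over mock at single positions, for the 18S central domain, the 18S positions before and after it, and 28S. Circles are medians, thick bars the middle 50% and thin lines the middle 90% of positions; the domain's middle 90% spans -1.15 to 0.84, the narrowest of the 4.

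The domain was a landscape of peaks that both libraries shared, with differences in height more than in place. After averaging over 15 positions, the ZAK-alpha-RBR profile had 8 peaks that stood out by at least 25 ppm and the mock had 6, a count chosen after seeing the data. The peaks at 681, 778, 817, 904 and 964 with ZAK-alpha-RBR had a mock peak no more than 3 positions away. The peaks at 715 and 843, both in ES6S, had their nearest mock peaks 33 and 26 positions away. The limit of 25 ppm is harder to reach where coverage is thin, as it was in the mock around 715. Single-position mock coverage had a local maximum of 69.6 ppm at 718, which was not counted as a peak after averaging. The ZAK-alpha-RBR peak at 1072, over helix 24, lay 15 positions upstream of the mock peak at 1087.

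**Figure D2:**
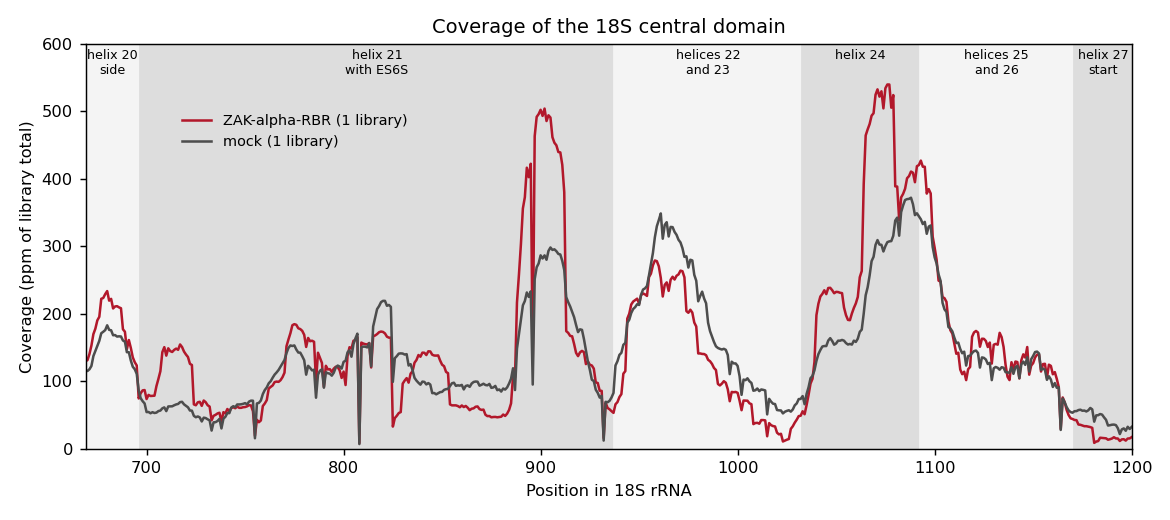
Coverage of each position of the 18S central domain in ppm of the library total, for the ZAK-alpha-RBR library (red) and the mock library (grey), 1 library each, with approximate limits of the helices shaded. Both libraries peak near 904, 964 and between 1072 and 1087; the ZAK-alpha-RBR library is higher over the first and the last of these and the mock over the middle one.

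At the helix 20 side, the first 28 positions of the range, coverage was fairly high in both libraries, with means of 177 ppm for ZAK-alpha-RBR and 148 ppm for the mock. The log2 ratio was 0.26, and no position there passed 2-fold. The limits used for helices, listed with the processing steps, are approximate and were set without a structure map. They lie about 7 positions downstream of where the motifs, once located, place the helices. Moving all limits 7 positions upstream, chosen after this was seen, left the sign of each stretch as it was.

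Over the 241 positions of helix 21 with ES6S, ZAK-alpha-RBR was slightly higher on average, but the difference sat in a few places. Means were 136 and 117 ppm, a 1.16-fold difference. Positions past 2-fold numbered 17 with ZAK-alpha-RBR higher and 5 with the mock higher. The 17 formed a single run, positions 707 to 723, in the GC-rich 5′ part of ES6S.

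That run contained the only higher region of the domain. For the region rule both profiles were averaged over 15 positions, and a region is any stretch of 10 or more positions whose averaged ratio departs from the 18S median by 2-fold or more. The region at 708 to 721, CGCCGCGAGGCGAG, had a mean of 145 ppm with ZAK-alpha-RBR and 63.7 ppm in the mock, a 2.28-fold difference. Read depth across it stayed even, with a median of 996 reads with ZAK-alpha-RBR and 4990.5 in the mock. At its peak ratio, A at position 715, there were 1015 reads against 5176, a 2.26-fold difference after scaling (2.11 to 2.42), and the highest ratio of any position in the domain was at C 710, 2.47-fold (2.302 to 2.65). Calls of this kind covered 4.73% of all positions of both rRNAs, and 14 of the 532 positions of the domain. The region was no longer called with averaging over 31 positions, with 10 ppm added, at a 3-fold limit or when at least 20 positions were required.

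The region was not a place of high coverage in either library. Its 145 ppm with ZAK-alpha-RBR was below the domain's mean of 155 ppm, and its 63.7 ppm in the mock was well below the mock's mean of 142 ppm. The 12 bases at 708 to 719 also occur on 28S, at 2557 to 2568, and this was the longest word that the domain shares with another place in the table; no 20-base word of the domain recurs. At the 28S copy the ratio went the other way, with 69.9 ppm against 115 ppm. The handling of reads that match several places is not stated in the sources used here, and its part in the result was not tested.

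Downstream in ES6S the ratio turned several times. At 745 to 782 and 783 to 820 the libraries had nearly equal means, 103 against 102 ppm and 137 against 137 ppm. Just after the fall of depth between positions 824 and 825, 5 positions, 825 to 829, were at least 2-fold lower with ZAK-alpha-RBR. The plateau that followed, at 830 to 853, was bounded by the ZAK-alpha-RBR profile alone. Its means were 126 ppm and 101 ppm, and ZAK-alpha-RBR was 1.25-fold above the mock. The next stretch was lower again, and at a limit of 1.5-fold the rule called it at 862 to 880, with 54.2 against 93.5 ppm.

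The tallest peak of ES6S stood at its 3′ part, in the sequence UUGUUGGUUUUCGGAACUGAGGCC. Over positions 889 to 912 the mean was 422 ppm with ZAK-alpha-RBR and 254 ppm in the mock, a 1.66-fold difference. U at position 898 had 3363 reads against 21191, 1.83-fold higher with ZAK-alpha-RBR (1.76 to 1.90). These 24 positions, 4.51% of the domain, held 12.3% of its ZAK-alpha-RBR coverage and 8.08% of its mock coverage. Their limits came from the ZAK-alpha-RBR profile alone, which favours that library here. The plateau ended sharply in the ZAK-alpha-RBR library, from 2600 reads at C 912 to 1192 at A 913, a loss of 54.2%, while the mock lost 15.2% at the same step. The peak was too small in fold for the 2-fold rule, and the 1.5-fold limit called it at 890 to 907.

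**Figure D3:**
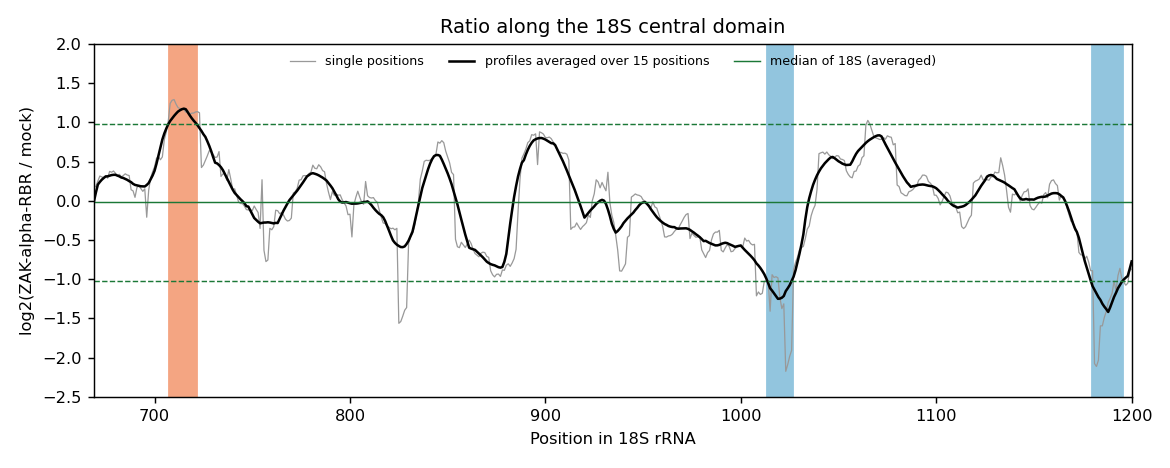
Log2 ratio of ZAK-alpha-RBR over mock along the 18S central domain, at single positions (grey) and after averaging both profiles over 15 positions (black), with the 18S median (green) and 2-fold above and below it (dashed). Orange marks the higher region at 708 to 721 and blue the lower regions at 1014 to 1026 and 1180 to 1195; between them the averaged ratio stays inside the dashed lines.

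In the 95 positions of helices 22 and 23 the mock was the higher library. Means were 132 ppm with ZAK-alpha-RBR and 175 ppm in the mock (log2 ratio -0.40), with 15 positions at least 2-fold below the mock and 0 at least 2-fold above it. The loop window of helix 23 at 951 to 973, around GUGAAAU, was well covered in both, with 251 and 299 ppm and a log2 ratio of -0.25. Its profile peaked at nearly the same place in both libraries, 964 and 965. The widest gap of the domain in favour of the mock was here, at G 961, with 1731 reads against 27470, or 253 against 349 ppm, 1.38-fold lower with ZAK-alpha-RBR (1.31 to 1.45).

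The fall below the mock deepened toward the 3′ end of this stretch. In the lower region at 1014 to 1026, GUUUUCAUUAAUC, the mean was 24.5 ppm with ZAK-alpha-RBR and 62.0 ppm in the mock (log2 ratio -1.304). The lowest ratio of the domain was at A 1023, where 74 reads stood against 4127, 4.84-fold lower with ZAK-alpha-RBR (3.85 to 6.18). The low point of the averaged ratio, C 1019, had 226 reads against 5223 and was 2.01-fold lower (1.76 to 2.302). Lower regions covered 9.73% of all positions of both rRNAs and 29 of the 532 positions of the domain. This region was no longer called when profiles were averaged over 5 positions in place of 15, and neither lower region was called in the 4 settings that lost the higher region.

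Helix 24 held the tallest ZAK-alpha-RBR coverage of the domain. Over its 60 positions the means were 319 and 226 ppm, a 1.41-fold difference, the highest of the 6 structural stretches. The loop window at 1052 to 1074, around AUACCGU, had 349 ppm against 214 ppm, a log2 ratio of 0.70, against -0.25 at the loop of helix 23 and -0.92 at the helix 27 window (1169 to 1191, around UUGCAAA, also found 1 time in 18S). The 5 positions with the highest ZAK-alpha-RBR coverage in the domain were 1071, 1073, 1075, 1076 and 1077, all on the 3′ side of that motif. Depth at G 1076 was 3691 reads with ZAK-alpha-RBR (exact Poisson interval 3573 to 3812) and 24119 in the mock (23816 to 24425), a 1.76-fold difference (1.70 to 1.83).

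The libraries differed most in ppm over the helix 24 peak, from its flank to its summit. The gap was 237 ppm at G 1065 and 234 ppm at C 1075, beside 223 ppm at U 898 in the ES6S peak. ZAK-alpha-RBR depth rose from 1801 reads at C 1063 to 3175 at G 1065, inside the AUACCGU motif, and G 1065 had the widest gap in favour of ZAK-alpha-RBR in the domain, 464 against 228 ppm, 2.04-fold (1.96 to 2.12). It was also the only position outside 707 to 723 that was at least 2-fold higher. The 5 highest mock positions, 1085 to 1089, lay a short way downstream, and there the difference was small: U 1088 had 411 ppm with ZAK-alpha-RBR and 372 ppm in the mock, 1.10-fold (1.06 to 1.15). Between them, from C 1079 to A 1080, ZAK-alpha-RBR depth fell by 25.8%, from 3584 to 2659 reads, while mock depth rose from 24860 to 26639. The plateaus at 889 to 912 and 1064 to 1101 held 26.4% and 29.4% of the domain's summed excess of ZAK-alpha-RBR over the mock. Both plateaus were bounded by the ZAK-alpha-RBR profile alone, which favours an excess of that library inside them.

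Helices 25 and 26 differed little, and the start of helix 27 was low. Over the 78 positions of helices 25 and 26, of which helix 26 lies near the exit of the mRNA channel, means were 162 and 150 ppm (log2 ratio 0.11, or -0.01 with scaling within 18S), and 0 positions passed 2-fold in either direction. Over the last 30 positions of the range the means dropped to 21.3 and 43.7 ppm (log2 ratio -1.003), and 15 of these positions were at least 2-fold lower with ZAK-alpha-RBR. With all helix limits 7 positions upstream this ratio was -0.71. The lower region at 1180 to 1195, CAAAGCUGAAACUUAA, had 15.1 ppm against 40.4 ppm (log2 ratio -1.36). At the low point of the averaged ratio, A 1188, 92 reads stood against 2716, 2.56-fold lower (2.08 to 3.19). The block that holds it, 1163 to 1200, had the lowest mean coverage of the 14 blocks described next in both libraries.

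**Figure D4:**
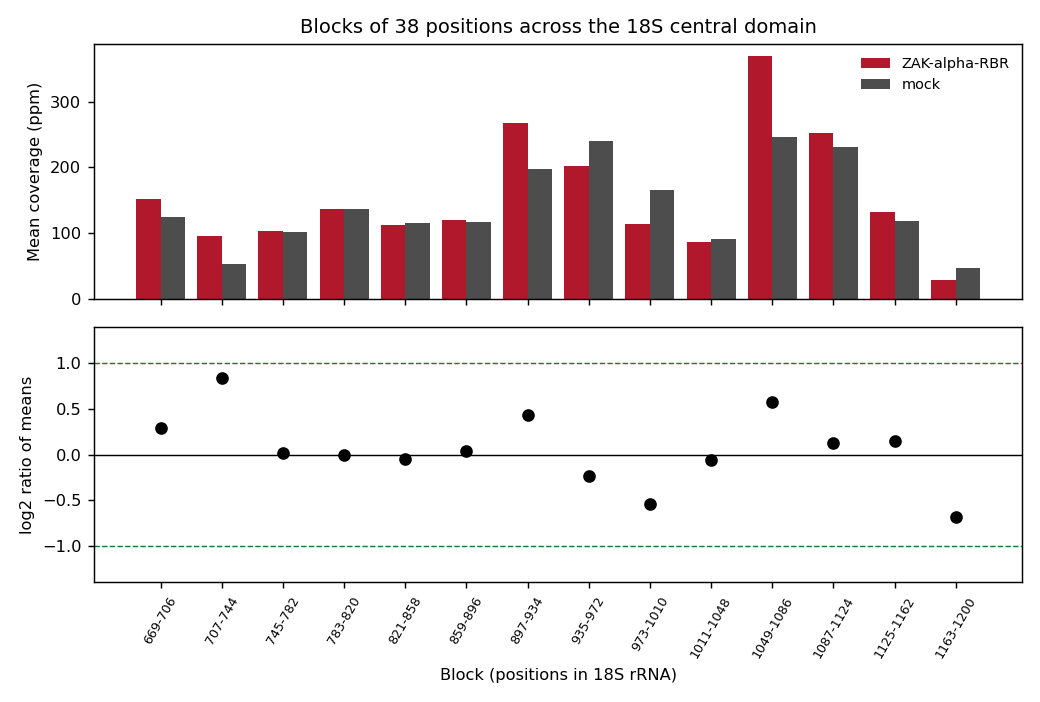
The 18S central domain in 14 blocks of 38 positions: mean coverage in ppm (bars, upper panel) and log2 ratio of the means (points, lower panel, with 2-fold limits dashed), 1 library each. No block passed 2-fold; block 707 to 744 is highest at 0.84 and block 1163 to 1200 lowest at -0.69.

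Cut into 14 equal blocks of 38 positions, the domain had 8 blocks with a ratio above 0 and 6 below, and 0 blocks past 2-fold. With scaling within 18S there were 5 above 0 and 9 below, and with scaling by the median of ratios 6 and 8, so the balance turned with the scaling. The highest ratios were at 707 to 744 (log2 ratio 0.84), 1049 to 1086 (0.58) and 897 to 934 (0.43), and the lowest at 1163 to 1200 (-0.69), 973 to 1010 (-0.54) and 935 to 972 (-0.24). The level itself varied far more between blocks than between libraries, from 29.0 to 369 ppm with ZAK-alpha-RBR and from 47.4 to 247 ppm in the mock. Block levels correlated between the libraries with r = 0.89 over the 14 blocks on the log2 scale. Across the 14 blocks the ratio and the GC content correlated with r = 0.43 (rho = 0.32), which is a description of blocks of the same libraries. This r rests largely on block 707 to 744, which had both the highest GC content, 84.2%, and the highest ratio. GC content was 56.4% in the domain and 55.9% in the rest of 18S.

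Several edges of the ZAK-alpha-RBR profile lay at C-A steps, a C with an A after it, a pair singled out because earlier results of these data had pointed to it. A fall in depth marks a net excess of reads that end over reads that start, going 5′ to 3′ along 18S. The strand of the reads is not stated in the sources used here. After dips inside runs of equal bases were filled in, 29.0% of all falls of ZAK-alpha-RBR depth in the domain were at its 18 C-A steps, against 11.9% in the mock. These steps make up 3.39% of neighbouring pairs. Falls after any C, whatever the next base, made up 59.8% of the ZAK-alpha-RBR falls and 41.3% of the mock falls. The widest ZAK-alpha-RBR falls of the domain were at C-A steps after 912, 1079 and 824, and the one after 723 ended the run at 707 to 723. The 4 widest carried 73.4% of the ZAK-alpha-RBR falls at C-A steps, and without them the share of falls was 9.79%, against 2.80% in the mock without its own 4. The widest mock fall was also after 824, a change of -69.4 ppm beside -112 ppm with ZAK-alpha-RBR. After 912, another of the widest mock falls, the changes were -40.2 and -206 ppm. The steps named here were picked by their ZAK-alpha-RBR falls, which favours smaller falls in the mock. Depth fell at 12 of the 18 steps in each library. The proportional change was more toward a fall with ZAK-alpha-RBR at 13 steps and in the mock at 5, among them those after 829, 1026 and 1118, where ZAK-alpha-RBR depth rose.

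Rises in depth, which mark a net excess of reads that start, did not follow the same pattern in the domain. At its C-A steps lay 6.20% of the ZAK-alpha-RBR rises and 4.77% of the mock rises, whereas in the rest of 18S these were 31.4% and 18.2%. The falls at C-A steps in the rest of 18S made up 35.0% with ZAK-alpha-RBR and 21.5% in the mock, from 5.16% of pairs. On 28S such falls made up 23.4% and 13.7%, from 3.33% of pairs. The lower region at 1014 to 1026 contained the C-A step after 1019, where ZAK-alpha-RBR depth fell by 27.9% and mock depth by 13.4%, and it ended at the step after 1026, where ZAK-alpha-RBR depth rose from 99 to 202 reads. The region at 1180 to 1195 began at the step after 1180, where ZAK-alpha-RBR depth fell by 47.2% and mock depth by 11.8%. The way the RNA was fragmented is not stated in the sources used here, and its part in the profiles was not tested.

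**Figure D5:**
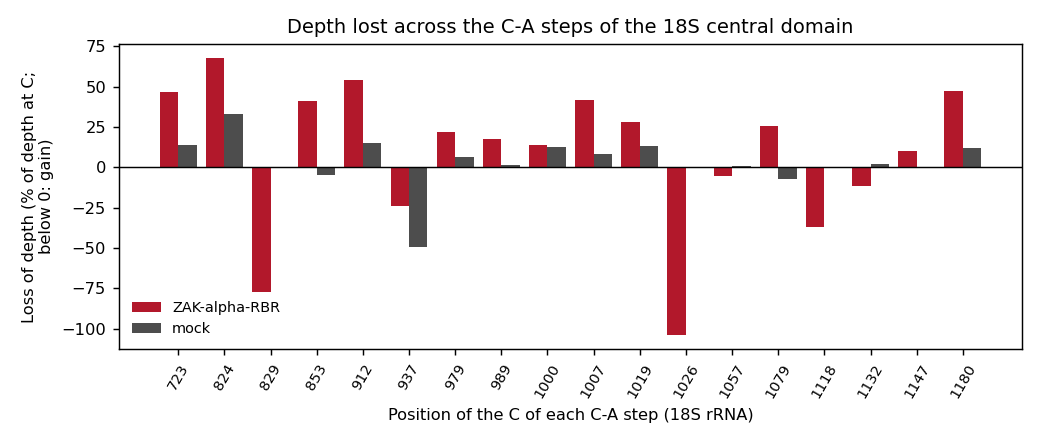
Loss of depth from the C to the A of each of the 18 C-A steps in the 18S central domain, in percent of the depth at the C after filling of homopolymer dips; bars below 0 are gains. ZAK-alpha-RBR (red) lost 67.9% after 824 and 54.2% after 912, where the mock (grey) lost 33.0% and 15.2%.

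Sharp dips at runs of equal bases were common to both libraries. The deepest was at A 808, the first of 6 A in a row, where depth was 58 reads with ZAK-alpha-RBR and 551 in the mock, 93.0% and 94.3% below the level around the run. Others lay at G 932, U 896 and C 755. Filling all dips added 1.38% to the coverage of the domain in each library, and the counts of positions past 2-fold stayed at 18 and 35.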

How the data were processed

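CLIP-seq coverage of 18S and 28S rRNA was analysed for 1 ZAK-alpha-RBR library and 1 mock library. Per the labels, adaptors were joined to fragmented RNA by an engineered tRNA ligase and sequenced on an Ion Proton; the submitters' processing notes name cutadapt 2.0 and Bowtie2 2.3.4.1. The deposited values are a coverage signal per position; the authors scaled the ZAK-alpha-RBR column to the mock total. Dividing by the step of 11.5 gave whole read depths at 100% of positions (to within 0.001), and coverage summed to 6835941 and 78749474. Ratios used ppm with a pseudocount of 1 ppm, and regions used averaging over 15 positions, a limit of 2-fold and at least 10 positions. Exact Poisson and Clopper-Pearson intervals were set at 95%, and those for shares of coverage are approximate. Reads without molecular identifiers may be copies, so intervals cover counting error only. The domain, the lists of stretches, motifs and rules were chosen with earlier results of these data known. Named were all called regions, the 3 highest and 3 lowest blocks, the 5 highest positions per library, extremes and all stretches; a few edges, dips and peaks were chosen after their values were seen. Scripts were tested on simulated data. Python 3.11.15, numpy 2.4.6, pandas 2.3.3, scipy 1.17.1 and matplotlib 3.10.9 were used. The domain is positions 669 to 1200 of 18S. Helix limits are 669 to 696 (helix 20 side), 697 to 937 (helix 21 with ES6S), 938 to 1032 (helices 22 and 23), 1033 to 1092 (helix 24), 1093 to 1170 (helices 25 and 26) and 1171 to 1200 (helix 27 start). Being multicopy, rRNA was given no chromosome position.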

Additional observations from a re-analysis of the deposited data

How the results depend on the processing

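The log2 ratio of the domain's mean coverages, 0.13, was 0.0043 with scaling within 18S and 0.025 with scaling by the median of ratios, so its size depends on the scaling; these scalings moved the median log2 ratio of all positions from 0.10 to -0.02 and -5e-05. The domain's share of 18S coverage was 23.9% and 24.6% (ZAK-alpha-RBR and mock) with limits widened by 20 positions, 21.9% and 21.8% with limits narrowed by 20, 26.5% and 23.8% without the highest 18S region, and 22.03% in the mock over positions above the lower quartile of coverage. The 35 lower positions became 54 with scaling within 18S, 23 with a pseudocount of 10 ppm, 20 with narrowed limits and 4 above the lower quartile, so most lie at thin coverage; the 18 higher positions were between 12 and 18 throughout. Higher regions numbered 3 at the 1.5-fold limit and 0 with a window of 31, a 3-fold limit, a pseudocount of 10 ppm or at least 20 positions, and lower regions 0 in the same 4 settings and 1 with a window of 5. Without filling dips, 21.97% of ZAK-alpha-RBR falls and 11.2% of mock falls were at C-A steps. Scaling within 18S turned the sign of 4 of the 23 blocks, stretches and landmarks, all with a log2 ratio within 0.12 of 0. No paired analysis was possible because each group has 1 library, and none could be left out. Depth limits the low ZAK-alpha-RBR places: A 1023 rests on 74 reads.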
